A study of Mus musculus with 6 samples.

Results

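The nuclear genes of the mitochondrial respiratory chain were compared between wild-type mouse embryonic stem (ES) cells and ES cells without Satb1, a DNA-binding protein that organises chromatin. They were all genes on the array with exactly 1 symbol in the probe annotation that begins with Ndufa, Ndufb, Ndufc, Ndufs, Ndufv, Uqcr or Atp5, or with Cox and a number from Cox4 to Cox8, or that is Cycs or Cyct. That gave 87 of 19938 genes: 34 subunits of complex I, 7 assembly factors of complex I, 8 genes of complex III, 19 of complex IV, 17 of complex V and both cytochrome c genes. The rule used symbols only, but it was written with earlier results of these data known, and each gene's probe set was the brightest. 82 of the 87 lay above the level of the median gene.

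There were 3 arrays of wild-type (WT) control cells, numbered 1, 2 and 3, and 3 arrays of Satb1-/- cells, labelled as clones 1-1, 1-2 and 2-1. Cells of both groups carried a HygroTK selection marker in the Oct4 locus. They were grown for 3 days with LIF and serum on irradiated feeder cells, under hygromycin, which keeps cells that express the marker, and feeders were thinned out by settling before total RNA was taken. The labels name no strain and do not say whether a group's arrays stand for separate cultures, so p-values measure only the spread between these arrays, which may be technical. Nor do they say what sets 1-1 and 1-2 apart from 2-1. Loss of Satb1 and any other difference between the clones and the WT cells cannot be told apart.

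The respiratory chain passes electrons from NADH and succinate to oxygen in the inner mitochondrial membrane and pumps protons as it does so. Complex I takes electrons from NADH, complex III hands them to cytochrome c, complex IV reduces oxygen, and complex V, the ATP synthase, uses the proton gradient to make ATP. Several complex IV subunits and cytochrome c have a general form and a form restricted to testis, muscle or lung, each encoded by its own gene. ES cells have immature mitochondria and draw much of their ATP from glycolysis.

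All 10 ES cell markers examined lay above the median gene, and their mean level was 9.31 to 9.56 on the WT arrays and 9.60 to 9.63 on the knockout arrays (log2 units). Of these 10 markers 2 rose and 0 fell: Nanog, a pluripotency factor that lies in the raised stretch of chromosome 6 described with Ndufa9 (1.09, limma adjusted p = 0.00109), and Esrrb, given with the regulators. By sign, 5 of the 10 were above 0 and 5 below, from -0.39 to 1.09. The groups did not overlap for 3 that were higher and 3 that were lower. At a limma unadjusted p under 0.05, 3 were higher and 2 lower. Satb1 itself read 5.12, 4.99 and 5.31 in WT and 4.38, 4.47 and 4.57 in knockout, but the labels do not say where its probes lie relative to the deletion. Of 11 measured fibroblast markers, taken as markers of feeder cells, 10 lay above the median gene and 0 passed the threshold. Their mean level was 6.22 to 6.70 in WT and 6.60 to 6.80 in knockout. Whether this RNA came from feeder cells was not measured. Of these 11 markers 10 were above 0 in the comparison, with a median of 0.13 and 3 at an unadjusted p under 0.05. Their part in the members' differences was not tested. In RNA from a whole culture, fewer cells of a type and less RNA per cell cannot be told apart. No 2 arrays held identical values. Over all probe sets, the WT arrays correlated with each other at a Pearson r of 0.98 to 0.99 and the knockout arrays at 0.99. Between WT and knockout arrays r was also 0.98 to 0.99.

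Sequences are given for the windows before the start sites of the 2 cytochrome c genes, Cyct of testis and Cycs of other cells, shown because the former rose and the latter missed the threshold. They are the 250 bases upstream, from RefSeq on GRCm38.p6, with each CpG in capitals; CpG is the dinucleotide that is methylated in mammalian DNA. The labels name no build for the array. The Cyct window lies at chr2:76360454-76360703 and the Cycs window at chr6:50566570-50566819, both on the minus strand.
Cyct: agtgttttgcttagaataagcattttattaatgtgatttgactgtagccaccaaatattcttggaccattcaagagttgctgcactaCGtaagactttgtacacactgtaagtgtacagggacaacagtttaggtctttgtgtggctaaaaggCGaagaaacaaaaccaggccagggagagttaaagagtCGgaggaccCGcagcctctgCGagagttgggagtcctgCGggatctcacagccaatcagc
Cycs: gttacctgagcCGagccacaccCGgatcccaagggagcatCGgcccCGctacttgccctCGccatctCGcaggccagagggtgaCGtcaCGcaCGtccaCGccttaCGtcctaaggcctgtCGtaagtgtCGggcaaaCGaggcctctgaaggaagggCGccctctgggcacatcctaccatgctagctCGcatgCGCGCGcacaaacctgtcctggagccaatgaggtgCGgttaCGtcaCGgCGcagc
The Cyct window held 6 CpG and was 45.6% G and C, against 23 CpG and 64.0% in the Cycs window. The median was 14.5 CpG over the 72 members with a RefSeq promoter and 12 over 15491 other genes, of which 30.9% had fewer CpG than Cyct. No methylation was measured here, so these letters are a description.

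Of the 87 genes 3 rose and 0 fell in the knockout arrays (limma, p under 0.05 after Benjamini-Hochberg adjustment across the 19938 genes): Cyct, Ndufa9 of complex I and Uqcrq of complex III. Over all genes tested, 0.923% rose and 0.476% fell by the same rule, 1.4% in either direction. Among the 9969 genes above the median gene, 169 rose and 84 fell by it. Without the adjustment, 8 members were above and 3 below at a p under 0.05, where all genes gave 5.92% and 4.55%. Of the 9969 genes above the median gene, where most members lie, 991 were above and 649 below by that rule. Most members differed little, 82 of them by less than 0.5 log2 units. Other probe sets existed for 18 members, 27 in all, of which 22 had the sign of the one used and 0 passed the threshold. For 10 members RefSeq lists a pseudogene copy named after the gene, whose signal cannot be told apart from the gene's here. Copies under other names were not counted. The groups did not overlap for 11 members that were higher in knockout (12.6%) and for 3 that were lower (3.45%), against 8.18% and 6.97% of all genes. Among the 9969 genes above the median gene they did not overlap for 1166 that were higher and 824 that were lower. Ndufa9 and Uqcrq are in chromosome stretches whose genes were raised together, and Cyct is not. These stretches were chosen with earlier results of these data known.

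**Figure D1:**
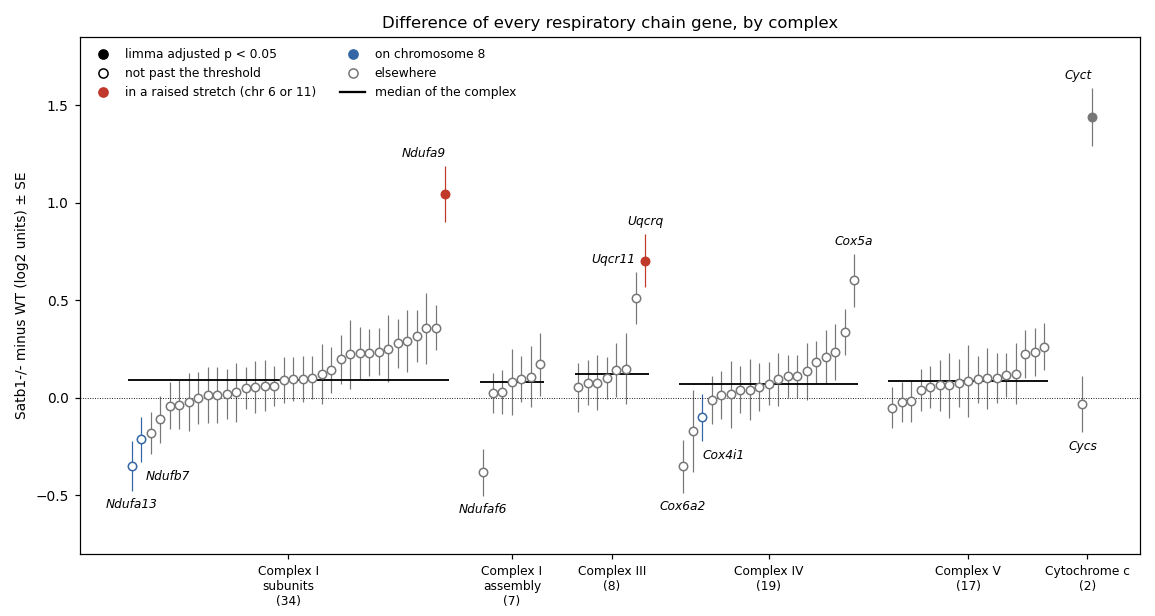
Difference between Satb1-/- and WT for every member in log2 units (y axis, limma estimate ± SE, 3 arrays a group), sorted within each complex. Filled points passed the threshold, and the horizontal bars are medians. Cyct (1.44), Ndufa9 (1.05) and Uqcrq (0.70) are the 3 filled points.

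Cyct encodes the cytochrome c of male germ cells, which carries electrons between complexes III and IV. It read 5.26, 5.48 and 5.08 in WT replicates 1, 2 and 3 and 6.42, 6.86 and 6.86 in knockout arrays 1-1, 1-2 and 2-1. All 3 knockout values lay above all WT values by at least the whole spread within either group. The difference was 1.44 (SE 0.15, 95% interval 1.11 to 1.78, limma adjusted p = 0.00127), a fold of 2.71. Its call held when any 1 array was left out (1.34 to 1.59) and was lost when values below the median of all values were set to that median (limma adjusted p = 0.144). None of its own values lay below that median, so its difference was unchanged, while its SE became 0.18. The loss was not particular to Cyct: Nanog also missed the threshold in that setting (limma adjusted p = 0.0735). Cyct lies on chromosome 2, and the 20 nearest genes above the median gene, 10 on each side, had differences of -0.40 to 0.43 with a median of 0.02. None of them passed the threshold.

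Cycs encodes the general cytochrome c, which also triggers caspases when it leaves the mitochondrion. It read 8.54, 8.52 and 8.91 in WT and 8.50, 8.51 and 8.86 in knockout. The groups overlapped throughout, and the difference was -0.03 (95% interval -0.35 to 0.29, limma adjusted p = 0.980). Its other probe sets differed by 0.06 and 0.15, the latter at mean levels of 3.91 in WT and 4.06 in knockout, below the level of the median gene. The log2 ratio of Cyct to Cycs within an array differed by 1.47 between the groups, with no overlap. A two-sided exact permutation test gave p = 0.10, the smallest that 3 against 3 arrays can give (0.40 adjusted over 8 pairs of forms).

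**Figure D2:**
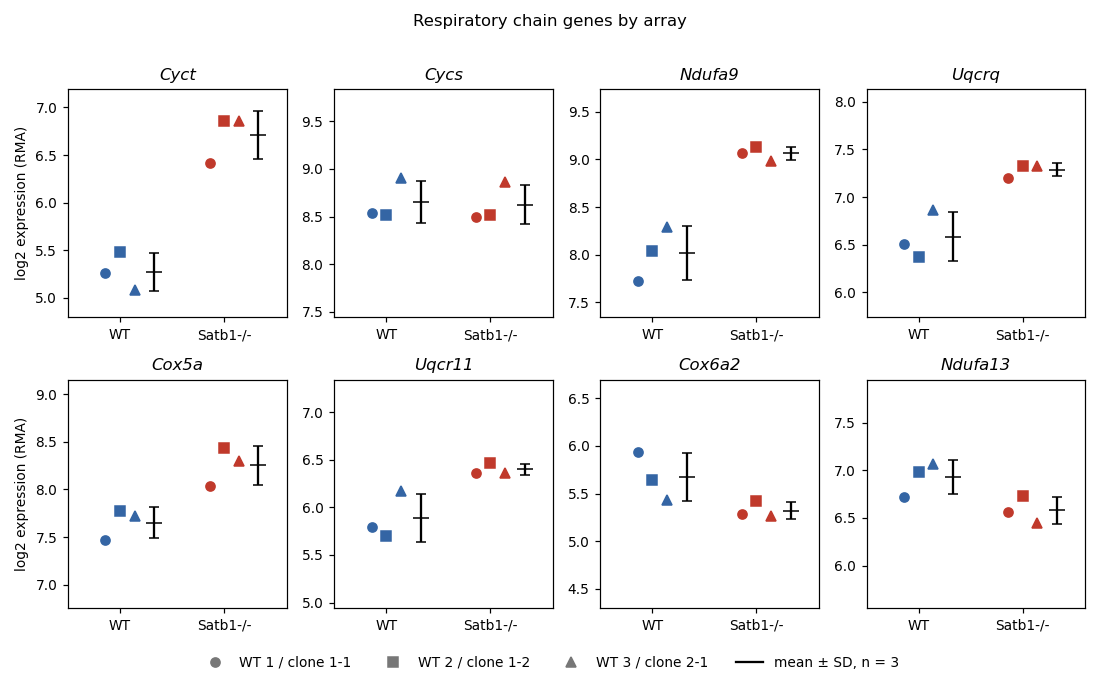
Log2 expression of 8 members on each array (y axis, 2.4 log2 units in every panel, with its own offset), WT in blue and Satb1-/- in red; the marker shape names the replicate and black bars give the mean ± SD of 3 arrays. Cyct, Ndufa9, Uqcrq, Cox5a and Uqcr11 show knockout arrays above all WT arrays, Cox6a2 below, while Cycs overlaps.

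The other forms restricted to testis did not pass the threshold. Cox6b2, the sperm form of a subunit at the contact within the complex IV dimer, read 5.67, 5.99 and 5.43 in WT and 5.51, 6.05 and 5.58 in knockout, a difference of 0.02 (95% interval -0.37 to 0.40). Cox7b2 differed by 0.07 (-0.17 to 0.32) and Cox8c by 0.11 (-0.13 to 0.35). Cox7b2 had readings of 3.18 to 3.43 and Cox8c of 4.35 to 4.64 over all arrays, below the level of the median gene. Among 7 testis forms of other energy genes, 0 passed the threshold, with differences from -0.19 (Pgk2, a glycolytic kinase) to 0.17 (Pdha2, a pyruvate dehydrogenase subunit). All 7 lay below the level of the median gene. Slc25a31, the germ cell carrier that exchanges ADP and ATP, differed by 0.03. Of 15 markers of testis germ cells, 0 passed the threshold, 10 were below 0, and only 2 lay above the median gene. The mean level of the 15 was 4.33 to 4.43 in WT and 4.25 to 4.39 in knockout. Whether the difference of Cyct exceeds those of the other testis forms was not tested.

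Forms restricted to muscle or lung also missed the threshold. Cox6a2, the heart and skeletal muscle form of a regulatory complex IV subunit, read 5.94, 5.64 and 5.43 in WT and 5.28, 5.42 and 5.26 in knockout. The groups did not overlap, by 0.01 between the nearest arrays, and the difference was -0.35 (95% interval -0.65 to -0.05, limma adjusted p = 0.365), or -0.22 without WT replicate 1. Its general partner Cox6a1 differed by 0.18, and the log2 ratio of the forms differed by -0.53 (two-sided exact permutation p = 0.10, 0.40 adjusted over 8 pairs). Beside this, 10 of 10 striated muscle markers were below 0 (median -0.19), and 0 of 10 passed the threshold. Their mean level was 4.72 to 4.96 in WT and 4.62 to 4.73 in knockout, and only 3 lay above the median gene. The median deviation of the 10 from each gene's mean over the 6 arrays was 0.21, 0.09 and -0.05 in WT replicates 1, 2 and 3. In knockout arrays 1-1, 1-2 and 2-1 it was -0.13, -0.03 and -0.14. The part of these markers in the Cox6a2 value was not tested. Cox7a1 and Cox8b, the other muscle forms, differed by 0.04 and 0.11 (the latter below the level of the median gene), and Cox4i2, the lung form that is induced by low oxygen, by 0.06. The general partners Cox7b, Cox7a2 and Cox8a differed by 0.14, 0.10 and 0.21, and a second, dimmer probe set of Cox7b by -0.01. For the 6 pairs of forms other than those of Cyct and Cox6a2, the log2 ratio differed by -0.32 to 0.16, with exact permutation p-values of 0.40 to 0.90.

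**Figure D3:**
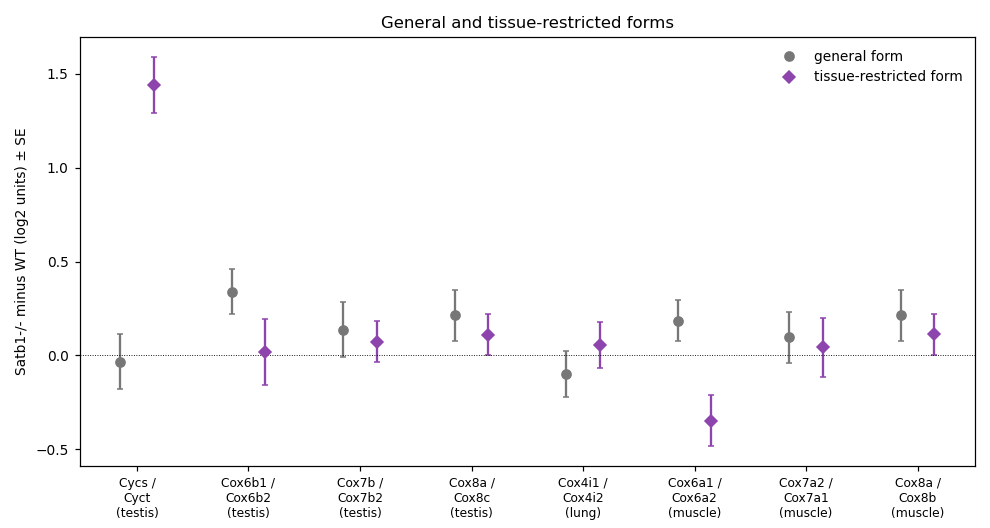
Difference between Satb1-/- and WT in log2 units (y axis, limma estimate ± SE, 3 arrays a group) for 8 pairs of a general form (grey circles) and a form restricted to testis, lung or muscle (purple diamonds). Cyct at 1.44 stands beside Cycs at -0.03.

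Complex I is the largest complex of the chain, with core subunits that hold the flavin and the iron-sulphur clusters and many accessory subunits around them. Among its 34 measured subunits 1 rose (Ndufa9) and 0 fell, 27 were above 0, and the median difference was 0.09, where the median over all genes was -0.00 and that over genes above the median gene was 0.02. The 6 core subunits measured (Ndufs1, Ndufs3, Ndufs7, Ndufs8, Ndufv1 and Ndufv2) differed by -0.02 to 0.25. Ndufs1, the largest of them, read 8.37, 8.59 and 8.87 in WT and 8.63, 8.53 and 8.67 in knockout, a difference of 0.00 (95% interval -0.30 to 0.30). Ndufv1, which binds NADH, differed by 0.06 (-0.23 to 0.35). In both genes the WT arrays spread further than the groups differed.

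Ndufa9, an accessory subunit that stabilises the junction of the peripheral and membrane arms, read 7.72, 8.04 and 8.29 in WT and 9.07, 9.13 and 8.99 in knockout. All knockout arrays were above all WT arrays, and the WT arrays were the more spread. The difference was 1.05 (SE 0.14, 95% interval 0.73 to 1.36, limma adjusted p = 0.00514), a fold of 2.07, and it stayed past the threshold when any 1 array was left out (0.90 to 1.18), but not with dim values set to the median (limma adjusted p = 0.205). That setting changed none of the Ndufa9 values, and the SE became 0.16. Ndufa9 lies in the stretch of distal chromosome 6 between Dcp1b and Dera, where 93 of 98 other brighter genes were above 0 and the median was 0.86. The limits of the stretch were chosen with earlier results of these data known, so these counts only describe it. Of the 20 brighter genes nearest to Ndufa9, 18 were above 0, 10 passed the threshold and 5 had a larger difference than Ndufa9. Their median was 0.76. The difference of Ndufa9 lay within the range of its neighbours' differences.

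Among the other complex I subunits, the largest positive difference was that of Ndufc2, a membrane arm subunit (0.36, limma adjusted p = 0.222). It read 8.30, 8.56 and 8.44 in WT and 8.66, 8.87 and 8.86 in knockout. The groups did not overlap, and none of its 20 nearest brighter genes had as large a difference. Ndufb9 (0.28) and Ndufa10 (0.23) were also higher on all knockout arrays than on all WT arrays, and Ndufa2 (-0.18) was lower on all, without passing the threshold. The lowest values were those of Ndufa13, also known as a cell death regulator (-0.35), and Ndufb7 (-0.21), both on chromosome 8. Of the 7 assembly factors, which help to build complex I and are not part of it, 0 passed the threshold. Ndufaf6, which is needed for early assembly, stood below the rest. It read 5.32, 5.59 and 5.62 in WT and 5.22, 5.003 and 5.16 in knockout, a difference of -0.38 (95% interval -0.65 to -0.12, limma adjusted p = 0.212). The other 6 differed by 0.02 to 0.17.

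All 8 measured genes of complex III were above 0, with a median of 0.12. Uqcrq, a small accessory subunit, read 6.51, 6.37 and 6.87 in WT and 7.20, 7.33 and 7.33 in knockout. The groups did not overlap, and the difference was 0.70 (SE 0.14, 95% interval 0.40 to 1.00, limma adjusted p = 0.0333), a fold of 1.63. This call was lost when any 1 array but WT replicate 3 was left out: the difference was then 0.60 to 0.75, with limma adjusted p-values up to 0.189. It was also lost with dim values set to the median (limma adjusted p = 0.294), which left the Uqcrq values unchanged and gave an SE of 0.15. Uqcrq lies on chromosome 11 near the end of the stretch from Phykpl to Kif3a. In it all 22 other brighter genes were above 0, with a median of 0.56. The limits of this stretch were also chosen with earlier results of these data known, so this count only describes it. The 10 brighter genes before Uqcrq had a median of 0.56 and the 10 after it one of 0.07, so that it sits at the edge of the shift.

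Uqcr11, another small accessory subunit, read 5.79, 5.70 and 6.17 in WT and 6.36, 6.47 and 6.36 in knockout. Its groups did not overlap, but the difference of 0.51 missed the threshold (limma adjusted p = 0.113), and passed it without WT replicate 3 (0.65, limma adjusted p = 0.010). A second probe set differed by 0.53. It lies on chromosome 10 outside the stretches, and none of its 20 nearest brighter genes had as large a difference (median -0.02). The other 6 genes differed by 0.05 to 0.15. Uqcrfs1, the Rieske iron-sulphur protein, differed by 0.08 (95% interval -0.24 to 0.39), and Uqcrc1 and Uqcrc2, the large core proteins, by 0.14 and 0.05.

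In complex IV 0 of 19 genes passed the threshold, 15 were above 0, and the median was 0.07. Ndufa4, named for complex I but a subunit of complex IV, and its homologue Ndufa4l2 are counted here (0.23 and -0.17). Cox5a, a subunit on the matrix side that every complex IV holds, came nearest. It read 7.47, 7.77 and 7.72 in WT and 8.03, 8.44 and 8.30 in knockout. All knockout arrays were higher, with a difference of 0.60 (95% interval 0.30 to 0.90, limma adjusted p = 0.0610), a fold of 1.52. It lies on chromosome 9 outside the stretches, and the differences of its 20 nearest brighter genes reached at most 0.38 (median 0.05). Cox5b, a neighbouring subunit in the complex, differed by 0.04. Cox6b1 was higher on all knockout arrays (9.15, 9.09 and 9.04) than on the WT arrays (8.69, 8.61 and 8.96), a difference of 0.34 (limma adjusted p = 0.277). Cox7a2l, which links complexes III and IV into supercomplexes, differed by 0.01, although a second probe set differed by 0.33 (limma adjusted p = 0.437).

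In complex V, 0 of 17 genes passed the threshold, and all differences lay between -0.05 and 0.26, with a median of 0.09. Atp5b, the catalytic beta subunit, read 11.68, 11.85 and 11.89 in WT and 11.72, 11.79 and 11.76 in knockout, a difference of -0.05 (95% interval -0.28 to 0.18). Atp5a1, the alpha subunit, differed by -0.02 (-0.25 to 0.21). Both intervals end well short of the differences of Ndufa9 and Cyct. The largest positive values were those of Atp5j2, a membrane subunit (0.26, limma adjusted p = 0.495), and Atp5g3, a gene of the proton-carrying c ring (0.24, limma adjusted p = 0.587). The other c ring genes Atp5g1 and Atp5g2 differed by 0.12 and -0.02.

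Chromosome 8, whose genes were lower along its length, holds 3 members, and all were below 0. Ndufa13 read 6.72, 6.99 and 7.07 in WT and 6.56, 6.73 and 6.44 in knockout, a difference of -0.35 (95% interval -0.63 to -0.07, limma adjusted p = 0.319). Ndufb7 read 7.55, 7.72 and 7.86 in WT and 7.45, 7.46 and 7.59 in knockout (-0.21, limma adjusted p = 0.607). Cox4i1, the general form of a regulatory complex IV subunit, read 8.58, 8.81 and 8.88 in WT and 8.52, 8.79 and 8.67 in knockout (-0.10, limma adjusted p = 0.889). In each of the 3 genes the groups overlapped. The 567 other brighter genes of the chromosome had a median of -0.29, and those nearest to Ndufa13, Ndufb7 and Cox4i1 medians of -0.33, -0.33 and -0.29. The differences of these 3 genes lay within the range of their neighbours. Outside chromosome 8 and the stretches were 82 members, of which 1 passed the threshold (Cyct) and 69 were above 0, with a median of 0.09, where 56.0% of other brighter genes outside them were above 0.

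**Figure D4:**
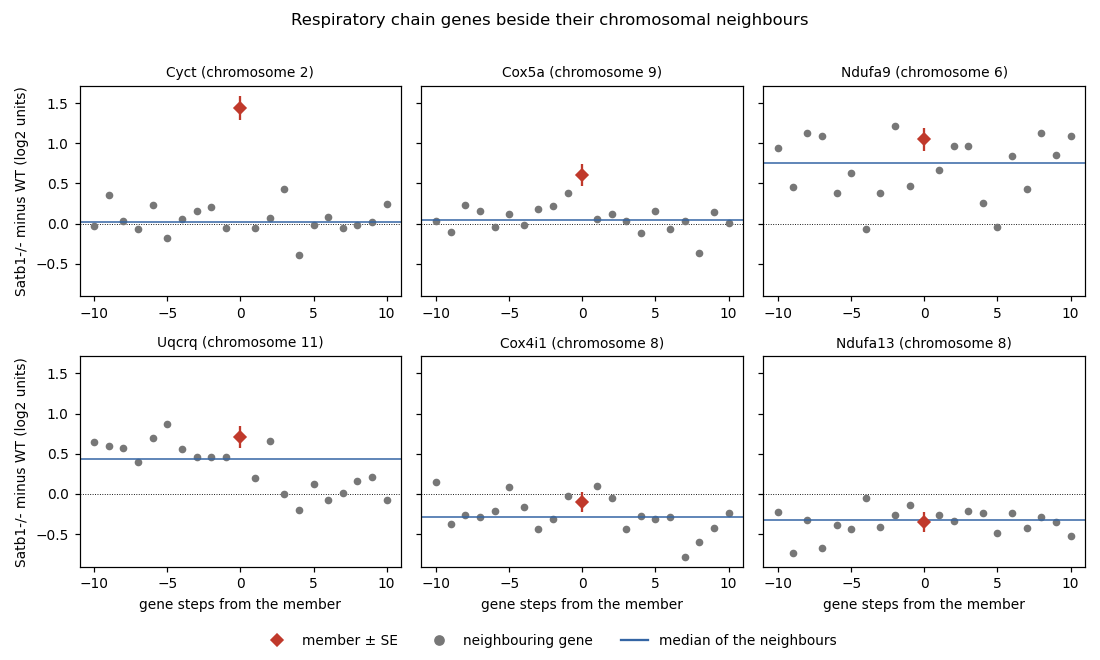
Difference between Satb1-/- and WT in log2 units (y axis) of 6 members (red diamonds ± SE) and of the 10 nearest genes above the median gene on each side (grey points), by gene steps along the chromosome (x axis). The neighbours' medians (blue lines) are 0.02 for Cyct and 0.05 for Cox5a, against 0.76 for Ndufa9, 0.43 for Uqcrq, -0.29 for Cox4i1 and -0.33 for Ndufa13.

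The median difference of the whole set depended on single WT arrays. Taken as the median deviation from each gene's mean over the 6 arrays, the level of the 87 members was -0.21, -0.04 and 0.10 in WT replicates 1, 2 and 3 and 0.02, 0.04 and 0.09 in knockout arrays 1-1, 1-2 and 2-1. WT replicate 3 was thus above every knockout array and WT replicate 1 below. Among the WT arrays, replicate 3 was the highest for 71.3% of the members and replicate 1 the lowest for 62.1%, against 52.5% and 51.3% of the other brighter genes. In all, 71 of 87 members (81.6%) were above 0 with a median of 0.09. Without WT replicate 1 these were 57.5% and 0.01, and without WT replicate 3 they were 82.8% and 0.17. The medians of complexes I, III, IV and V, which were 0.09, 0.12, 0.07 and 0.09, became 0.06, -0.01, 0.00 and 0.00 without WT replicate 1. For complexes I, III and V the knockout arrays lay within the range of the WT arrays. The WT arrays also spread more gene by gene, with a median SD of 0.20 against 0.09 in knockout.

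**Figure D5:**
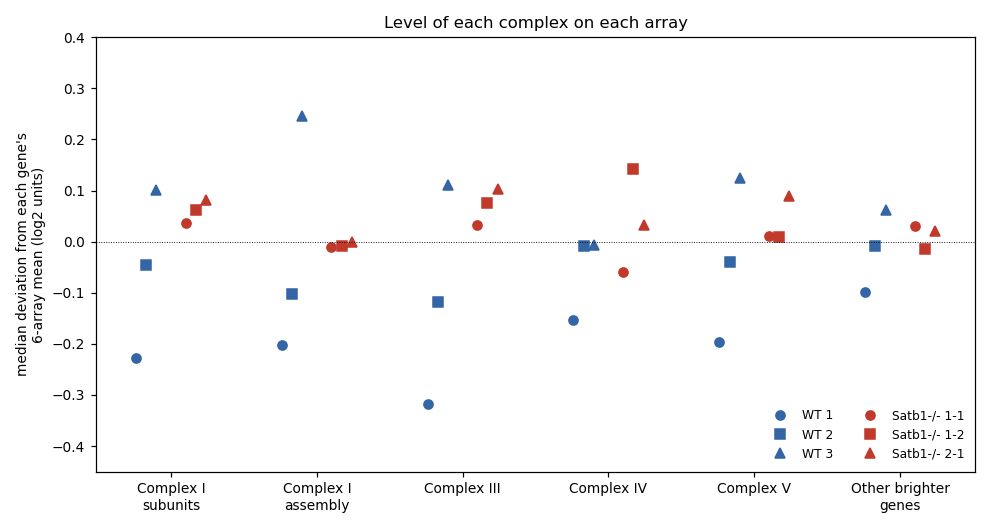
Level of each complex on each array, as the median over its genes of the deviation from the gene's mean over the 6 arrays (y axis, log2 units), WT in blue and Satb1-/- in red. The knockout arrays lie between WT replicates 1 and 3 for complexes I, III and V and for the assembly factors.

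Other genes of the pathway, from lists of its parts, gave few changes. Complex II, which oxidises succinate and whose symbols were not among those used, had 0 of 4 genes past the threshold: Sdha differed by 0.09, Sdhb by 0.20, Sdhc by -0.13 and Sdhd by -0.03. The chain genes of mitochondrial DNA were not analysed here. Cyc1, the cytochrome subunit of complex III, and Atpif1, which inhibits ATP synthase, differed by 0.06 and 0.08. Higd1a, a small inner membrane protein that associates with complex IV, rose. It read 5.37, 5.71 and 5.69 in WT and 6.15, 6.29 and 6.43 in knockout, a difference of 0.70 (limma adjusted p = 0.0264). Its call was lost without WT replicate 1 or any 1 knockout array (0.59 to 0.77, limma adjusted p up to 0.176). Of 29 measured assembly factors outside the symbols used, 15 genes of ubiquinone synthesis and electron entry, 12 of the citric acid cycle and 5 carriers and uncoupling proteins, 0 passed the threshold, and the medians were 0.02, 0.08, 0.08 and 0.10.

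Of 19 regulators of mitochondrial transcription and biogenesis 1 rose, Esrrb, a nuclear receptor that is also a pluripotency factor (0.56, limma adjusted p = 0.0435, lost without WT replicate 1 or any 1 knockout array, 0.48 to 0.57). Nrf1, a transcription factor known for binding promoters of respiratory chain genes, was lower on all knockout arrays, with a difference of -0.32 that missed the threshold (limma adjusted p = 0.361). Among the 19 regulators 12 were below 0, and the median was -0.03. The groups did not overlap for 2 that were higher and 3 that were lower, against 8.18% and 6.97% of all genes. Of 77 mitochondrial ribosome genes, 1 rose and 1 fell, and the median was 0.02. Both lie on distal chromosome 6: Mrpl51 (1.09, limma adjusted p = 0.00270) in the raised stretch that holds Ndufa9, and Mrps35 (-0.60, limma adjusted p = 0.0483) in the lowered one beyond it. The Mrps35 call was lost without any 1 array (-0.70 to -0.51).

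Promoter windows were searched for motifs of known regulators. RefSeq windows of 300 bases, from 250 before to 50 after the start, were found for 72 of the 87 members, and a gene counted when any of its windows held a motif on either strand. The strict NRF1 motif was in the windows of 9.72% of the members and 1.58% of 15491 other genes tested, and its looser form, which leaves 1 central base free and includes the former, in 22.2% and 7.80%. The YY1 motif AAGATGGC was in 13.9% and 3.72%, the ETS motif CCGGAAG, which GABP binds, in 22.2% and 13.6%, and the E2F motif TTCCCGC in 8.33% and 7.38%. Only exact matches were counted, and neither NRF1 form had one in the Cyct or Cycs window. The Cycs sequence printed above nevertheless holds a run that differs from the strict form in 1 base, at its end. The lack of an exact match therefore does not show that the Cycs window has no NRF1 site. The 7 members with the NRF1 motif had a median difference of 0.08, and the 65 without it one of 0.10. The Ndufa9 window held the YY1 motif, and the 10 members with that motif had a median of 0.08. A match is a description of these letters and not of binding.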

How the data were processed

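Gene expression was measured on 6 single-channel Affymetrix arrays, 3 WT and 3 Satb1-/-. The authors deposited 1 log2 value for each probe set and array, made with RMA, per the submitters' processing notes, which state neither version nor settings. Of 35557 probe sets, 21789 had exactly 1 symbol in the platform annotation. The brightest probe set stood for each gene, which gave 19938 genes, of which 19856 were placed on chromosomes by Entrez ID in RefSeq GRCm38.p6. Groups were compared with limma 3.58.1 (lmFit and eBayes, R 4.3.3) over all genes with Benjamini-Hochberg adjustment and a threshold of 0.05, and the procedure was tested on simulated data. Brighter genes are those above the median gene. By rule, the text named Cyct, Cycs, members past the threshold, the 2 largest increases and decreases of each complex, tissue-restricted forms with their partners, members on chromosome 8 or in the stretches, complex II and genes past the threshold in other lists; other genes were named after their values were seen. The members, lists and chromosome stretches were chosen with earlier results of these data known. Alternatives were a threshold of 0.01, a trended robust variance, the filter on dim genes, a floor, centring, a second quantile normalization, array weights, other probe sets or their mean, leaving out the stretches, the clones 1-1 and 1-2 as 1 sample, and leaving out each array. The number of arrays limits the precision.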

Additional observations from a re-analysis of the deposited data

How the results depend on the processing

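The count of respiratory chain genes that rose, 3 in the analysis reported, was 5 with array weights (Cox5a and Uqcr11 added) and 0 with a floor on dim values. It ranged from 2 to 4 when 1 array was left out. Without chromosome 8 and the shifted stretches it was 1. That setting removes Ndufa9 and Uqcrq themselves, so it could not test their calls. With the floor, Cyct kept its difference of 1.44 but missed the threshold (limma adjusted p = 0.144), as did Ndufa9 (0.205) and Uqcrq (0.294). All values of these 3 genes lay above the floor, so only their SE and p-values changed. Outside the members, Nanog (limma adjusted p = 0.0735) and Mrpl51 (limma adjusted p = 0.157) also missed the threshold with the floor. When 1 array was left out, Cyct ranged from 1.34 to 1.59, and the medians ranged from 0.06 to 0.16 for complex I, -0.01 to 0.23 for III, 0.00 to 0.13 for IV and 0.00 to 0.19 for V. No member fell under any alternative run. Uqcrq passed the threshold in 7 of 16 alternatives and Cox5a in 2 of 17, the latter with array weights and with brighter genes only. The cause was not tested. Grouping members by symbol prefix was an alternative chosen after seeing the data. No paired analysis was possible because the groups share no replicate numbers. The 3 arrays a group limit the precision, and signal near background limits Cox7b2, Cox8b and Cox8c.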
